A study of Mus musculus with 14 samples.

Results

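The glycolysis and hypoxia-response genes are a set of 36 genes named by symbol, and each one was found in the deposited table of 23331 genes. They comprise 4 transporters of glucose and lactate, 16 glycolytic enzymes, 6 regulators of glycolytic and pyruvate flux, 3 oxygen-sensing genes and 7 other genes known to respond to low oxygen. The 36 symbols match 37 entries, because P4ha2 is listed under a second identifier (ENSMUSG00000078859) with 2 to 64 reads per library, which was kept apart. All 36 members passed the filter on low counts, which left 13896 genes for testing.

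RNA was sequenced from bone marrow stromal cells, which had been flushed from femora and tibiae of adult C57Bl/6 mice carrying the irtTA-GBD*-TAg transgene. All 14 libraries share this background. The cells were expanded with dexamethasone and 1 µg/ml doxycycline, which induce the viral large T antigen, and RNA was taken after 3 days without these inducers. Medium for every group held 1 g/L glucose and 10% serum, and the oxygen level of the cultures is not given in the sources used here. Clones had been scored for differentiation. Tripotent clones (OAC) formed bone, fat and cartilage cells, OA clones formed bone and fat cells, O clones bone cells and A clones fat cells, and each of these groups has 3 libraries. Libraries numbered 1 and 2 each come from a single clone, of a different mouse, while those numbered 3 mix several further clones of these mice, so a group rests on 2 clones and a mixture. The osteo-chondrogenic pool OC3 and the adipo-chondrogenic pool AC3 have no replicate.

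Glycolysis splits glucose to pyruvate in the cytoplasm, and lactate dehydrogenase turns pyruvate into lactate, which leaves the cell through monocarboxylate transporters. Prolyl hydroxylases of the Egln family use oxygen to mark the protein Hif1a for destruction. When oxygen is scarce Hif1a persists, pairs with Arnt and activates genes for glucose uptake, glycolytic enzymes, blood vessel growth and collagen modification. Bone marrow is known as a tissue of low oxygen, and its stromal cells are known for a high rate of glycolysis.

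Total reads ranged from 16888190 in OAC2 to 26076539 in OC3. The deviation of a library from the mean library followed the GC content of genes in most libraries, in both directions. Spearman's rho across genes was 0.65 in OA2 and 0.51 in O1, where genes rich in GC were high, and 0.36 and 0.35 in OAC2 and OAC1. It ran the other way in OAC3, OC3 and AC3, at -0.55, -0.54 and -0.54, and in O2, O3 and OA3, at -0.47, -0.44 and -0.43. The 3 O libraries therefore differ in the direction of this trend, and rho was between -0.19 and 0.10 in OA1 and the A libraries. O1 also had the lowest level of a list of 19 cell cycle genes, which summed to 367 CPM there and to 1359 to 2593 CPM elsewhere. CPM, the unit used throughout, are reads scaled to the TMM-adjusted library size. Of the stromal markers, Col1a1 was at 4941 to 56470 CPM and Pdgfrb at 302 to 1135 CPM, while Lepr reached at most 2.67 CPM and Thy1 was at 0 in 12 libraries. Of the blood cell markers, Ptprc was at 0 in 12 libraries, but Cd14 and Cd68, which mark monocytes and macrophages, were found in every library, at 1.75 to 16.6 and 1.74 to 13.6 CPM. Cd14 averaged 2.21 ± 0.37 CPM in OAC, 3.71 ± 1.32 CPM in OA, 8.77 ± 6.84 CPM in O libraries and 6.07 ± 2.18 CPM in A libraries. Its level in each OAC library was below that in every O and A library. Cd68 averaged 5.17 ± 4.16 CPM in OAC, 2.69 ± 0.25 CPM in OA, 5.72 ± 2.13 CPM in O libraries and 9.36 ± 3.84 CPM in A libraries. Here each OA library was below every O and A library. The 6 of 10 listed blood cell markers in the table summed to 3.53 to 12.4 CPM in OAC, 5.44 to 7.78 CPM in OA, 7.49 to 24.1 CPM in O and 9.89 to 20.4 CPM in A. Of the endothelial markers, Cdh5 was at 0 in 10 libraries and Kdr was at 0.324 to 5.88 CPM. The part of these markers in the results below was not tested. These are bulk libraries, in which fewer cells of a type and less RNA per cell cannot be told apart.

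Levels per kilobase of exon spread widely among the enzymes. Aldoa, the aldolase that splits the 6-carbon sugar, had the highest median over 14 libraries, 358 CPM per kb. Ldha, the lactate dehydrogenase subunit that favours lactate formation, had 225 CPM per kb and Tpi1, the triose phosphate isomerase, 203 CPM per kb. The collagen hydroxylase subunit P4ha1 came next with 82.2 CPM per kb, ahead of Pfkl, Gpi1 and Eno1 with 68.8, 64.8 and 51.4 CPM per kb, while Pgam1, Pgk1 and Eno2 had 10.5, 7.91 and 3.16 CPM per kb. Slc2a3, a glucose transporter best known from neurons, and Aldoc, the brain aldolase, were lowest with 0.288 and 0.177 CPM per kb. Gapdh, usually among the most abundant messages of a cell, was listed at only 2.97 to 6.73 CPM. Its transcript matches 90 other genes over at least 200 bases at 95% identity or more, of which 84 are pseudogenes and 39 are in the deposited table, so its level is uncertain. The same holds to a lesser degree for Bnip3 with 5 such matches, Pgk1 and Ldha with 4 each, Eno1 with 3, and Gpi1, Tpi1, Pgam1 and Ldhb with 1 each. The other 27 members had none.

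Levels varied most between libraries for Slc16a3, Adm, Aldoc, Hif1a and Egln3. Slc16a3, the lactate exporter, spanned 1.10 CPM in A1 to 165 CPM in O2, and Adm, the vasodilator peptide adrenomedullin, 0.761 CPM in O2 to 52.1 CPM in AC3. Egln3, a Hif1a hydroxylase, spanned 1.41 CPM in A2 to 21.6 CPM in OA1. Egln1, the main Hif1a hydroxylase, was the most even member, at 58.2 CPM in A1 to 92.3 CPM in OA2. Gapdh followed, and then the pyruvate dehydrogenase kinase Pdk3, at 19.9 CPM in O1 to 47.6 CPM in OAC1.

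**Figure D1:**
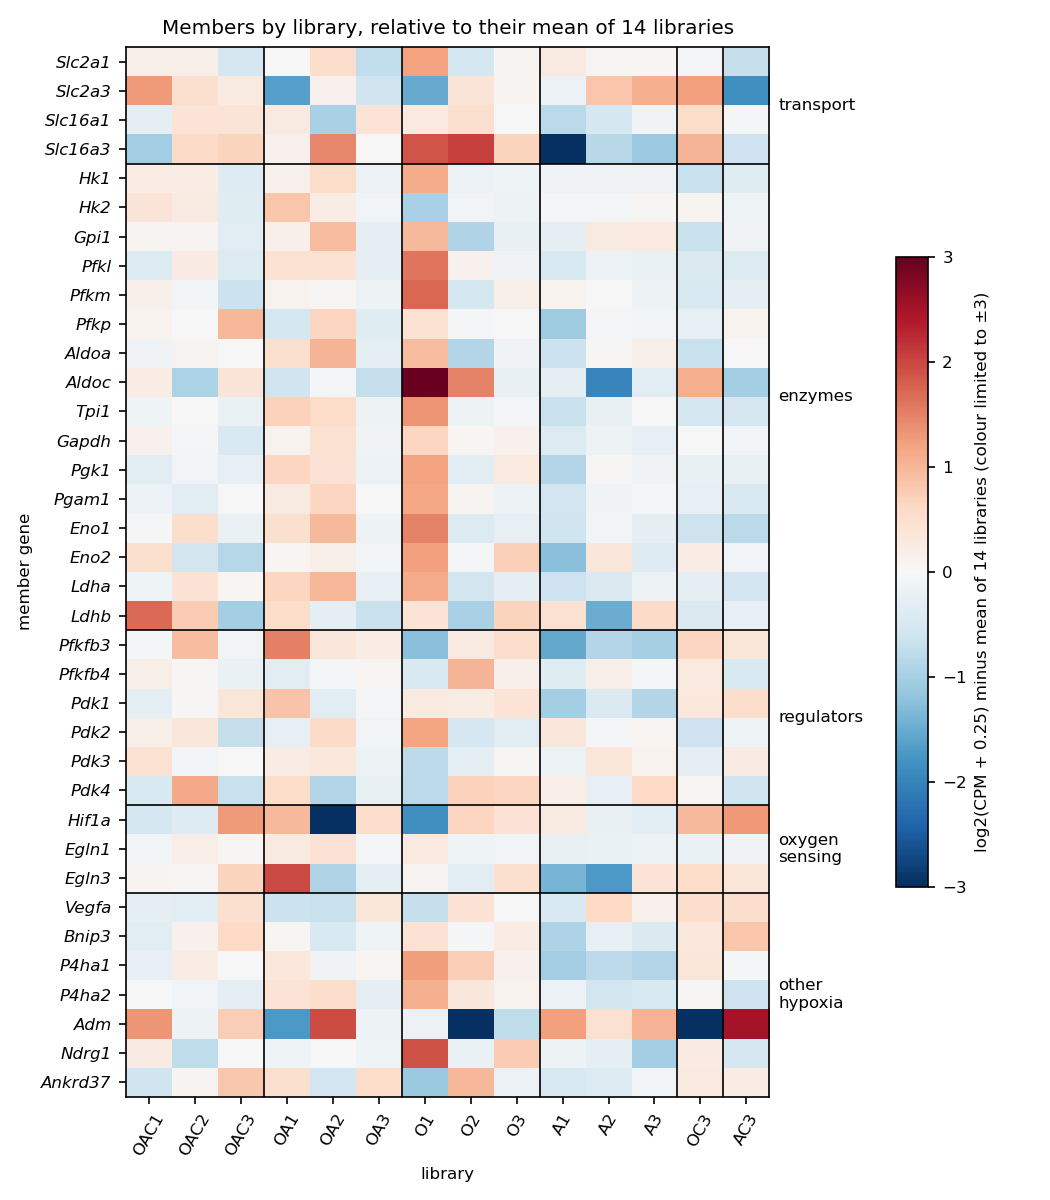
Level of each of the 36 members (rows, grouped by role) in each of the 14 libraries (columns), as log2(CPM + 0.25) minus the member's mean over the 14 libraries, with the colour limited to ±3. O1 is red for most glycolytic enzymes, with a median deviation of 1.14, and A1 is blue for most of them, with a median of -0.52.

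O against A gave the clearest separation among the members. P4ha1, Slc16a3 and P4ha2 were higher in O by the DESeq2 test, and 31 of 36 members had a positive log2 fold change, against 52.6% of all tested genes. The median over the members was 0.65, and over all tested genes 0.03. By edgeR's quasi-likelihood test, the main test, 0 members passed an FDR of 0.05 (0.0072% of all genes, a single gene, did). At an unadjusted p under 0.05, edgeR counted 9 members, all higher in O, which is 25% of the members against 9.51% of all genes in either direction and 4.81% higher. DESeq2 called 3 members, or 8.33%, against 3.05% of all genes in either direction and 1.76% higher. For 10 members every O library lay above every A library (7.2% of all genes), and for 2, Hk2 and Adm, every O library lay below (8.3%), which makes 12 in all (15.5%).

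A large part of this rests on O1. With O1 left out the median of the members was 0.28, and 23 of 36 were above 0. At an unadjusted p under 0.05 edgeR then counted 6 higher and 1 lower, against 7.46% of all genes in either direction. A GC offset in the fit, with all libraries, left the median at 0.63. It gave 12 members at such a p, against 12.3% of all genes in either direction. The p-values measure the spread between the 2 clones and the pool of each group.

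The sequences around the starts of P4ha1, P4ha2, Slc16a3 and Pfkfb3 are shown because these 4 members were called by DESeq2 in a comparison with A, Pfkfb3 in OA and the others in O, and are known as genes induced by low oxygen. The hypoxia-response core was searched as ACGTG or GCGTG on both strands, in RefSeq windows of 300 bases around gene starts on GRCm38.p6, a later build than the mm9 of the counts. A palindromic CACGTG counts on both strands and so as 2 matches. Windows were found for 34 members, not for Slc2a3 and Ndrg1. Capitals mark the matches, and each sequence runs 5′ to 3′ on the strand of its gene.

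P4ha1, chr10:59323046-59323345, plus strand: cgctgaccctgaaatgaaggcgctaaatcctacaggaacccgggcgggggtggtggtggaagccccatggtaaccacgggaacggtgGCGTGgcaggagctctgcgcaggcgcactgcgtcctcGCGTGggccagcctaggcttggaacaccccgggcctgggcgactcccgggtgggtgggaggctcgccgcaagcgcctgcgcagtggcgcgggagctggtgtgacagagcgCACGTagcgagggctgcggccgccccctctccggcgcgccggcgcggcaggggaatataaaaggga
P4ha2, chr11:54100674-54100973, plus strand: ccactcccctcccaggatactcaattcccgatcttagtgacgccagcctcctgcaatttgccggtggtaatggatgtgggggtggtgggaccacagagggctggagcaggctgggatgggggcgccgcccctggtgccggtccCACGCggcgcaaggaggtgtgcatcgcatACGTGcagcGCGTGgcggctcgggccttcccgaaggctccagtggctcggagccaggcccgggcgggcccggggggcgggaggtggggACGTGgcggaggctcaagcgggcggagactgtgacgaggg
Slc16a3, chr11:120948817-120949116, plus strand: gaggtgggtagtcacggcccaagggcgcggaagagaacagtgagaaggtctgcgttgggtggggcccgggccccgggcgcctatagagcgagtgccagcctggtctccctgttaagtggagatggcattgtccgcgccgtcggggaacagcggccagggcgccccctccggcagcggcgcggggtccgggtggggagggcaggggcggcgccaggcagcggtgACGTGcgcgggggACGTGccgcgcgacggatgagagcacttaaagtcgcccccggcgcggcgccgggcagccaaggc
Pfkfb3, chr2:11502041-11502340, minus strand: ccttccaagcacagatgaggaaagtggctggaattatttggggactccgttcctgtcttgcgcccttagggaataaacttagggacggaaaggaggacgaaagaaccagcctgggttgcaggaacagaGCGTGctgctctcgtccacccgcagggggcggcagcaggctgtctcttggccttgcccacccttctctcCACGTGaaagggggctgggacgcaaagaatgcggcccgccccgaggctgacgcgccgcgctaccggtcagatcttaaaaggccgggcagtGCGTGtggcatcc

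P4ha1 has 3 matches in its window, P4ha2 has 4, Slc16a3 has 2, and the Pfkfb3 window shown has 4, including a CACGTG. A second Pfkfb3 window has 1. At least 1 match was found for 31 of the 34 members, or 91.2%, against 46.7% of all genes with a window, and in 39 of 48 member windows, or 81.2%, against 43.8% of all 32851 windows. Pdk1 has a match in 1 of its 2 windows, and Gpi1, Eno2 and Tpi1 have none. The genes with a window were not limited to those that passed the filter on low counts, while all members passed it. The shares are therefore not set against like genes. The member windows hold a median of 20 CG dinucleotides and all windows a median of 7, and both cores contain CG. A match describes letters only, not binding.

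P4ha1 (ENSMUSG00000019916), a catalytic subunit of the hydroxylase that stabilises the collagen triple helix, had the lowest p of the members. It stood at 786, 558 and 365 CPM in O1, O2 and O3, against 162, 192 and 180 CPM in A1, A2 and A3. The lowest O library was therefore well above the highest A library. The means were 569.8 ± 211 CPM in O libraries, against 178 ± 14.99 CPM in A libraries (SD over 3 libraries, as for all groups), a log2 fold change of 1.68 ± 0.28, with an edgeR FDR of 0.114 and a DESeq2 adjusted p of 3.67e-06. SEs throughout were derived from the edgeR test as the absolute log2 fold change over the square root of F. DESeq2 kept this call with each of the 6 libraries left out in turn, at adjusted p values of 6.21e-11 to 0.000565. Without O1 its log2 fold change was 1.38 ± 0.24 by edgeR, with an FDR of 0.27.

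P4ha2 (ENSMUSG00000018906), the other catalytic subunit in the set, was at 413, 248 and 209 CPM in O1, O2 and O3, against 174, 132 and 141 CPM in A1, A2 and A3. These groups did not overlap either, though O1 set the mean of O. Means were 290.0 ± 108 CPM in O libraries, against 149 ± 21.6 CPM in A libraries, a log2 fold change of 0.96 ± 0.29, with an edgeR FDR of 0.32 and a DESeq2 adjusted p of 0.0406. The DESeq2 call was lost without A1, A2, A3, O1 or O2, and without O1 its adjusted p was 0.274. Type I collagen is the main substrate of these enzymes in bone-forming cells, and Col1a1 averaged 46030 ± 11858 CPM in O libraries, against 8449 ± 3188 CPM in A libraries, with a DESeq2 adjusted p of 7.28e-08.

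Among the transporters, Slc16a3 (ENSMUSG00000025161) differed most. It had 148, 165 and 63.4 CPM in O1, O2 and O3, against 1.10, 22.0 and 18.5 CPM in A1, A2 and A3. The pool O3 was the lowest of the O libraries and A1, with 27 reads, the lowest of all 14. Means were 126 ± 54.4 CPM in O libraries, against 13.9 ± 11.2 CPM in A libraries, a log2 fold change of 3.18 ± 0.93, with an edgeR FDR of 0.298 and a DESeq2 adjusted p of 0.00818. Without O1 or without O2 the DESeq2 adjusted p was 0.0684 and 0.076, so the call was lost without either single clone of O. With both OA2 and O1 left out it was 0.0259. Slc16a1, the widely expressed monocarboxylate transporter, was also higher in every O library, at 33.2 ± 5.77 CPM in O libraries, against 20.04 ± 4.996 CPM in A libraries, with an edgeR FDR of 0.585. Slc2a1, the main glucose transporter here, was at 245, 72.5 and 112 CPM in O1, O2 and O3, against 126, 109 and 109 CPM in A1, A2 and A3. Its groups overlapped, and its log2 fold change of 0.32 ± 0.44 was -0.32 ± 0.37 without O1. Slc2a3 averaged 1.58 ± 1.01 CPM in O libraries, against 2.95 ± 1.25 CPM in A libraries.

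The glycolytic enzymes leaned towards O through a single library. Of 16 enzymes, 15 had a positive log2 fold change in O against A with a median of 0.71, and without O1 it was 8 of 16 with a median of 0.09. O1 held the highest of the 14 levels for 12 of the 16 enzymes, and for 17 of all 36 members, against 20.8% of all genes. A1 held the lowest level for 7 of the enzymes and for 13 of the members, against 5.72% of all genes. Low cell cycle levels and the GC trend moved with O1, as given above. A fit with a GC offset was among the alternatives, but the part of either in these levels was not tested.

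Ldha (ENSMUSG00000063229) shows the pattern. It was at 1676, 528 and 643 CPM in O1, O2 and O3, against 500.3, 570.4 and 691 CPM in A1, A2 and A3. O2 and O3 lay within the range of A, so the mean of 949 ± 632 CPM in O against 587 ± 96.7 CPM in A came from O1. The log2 fold change of 0.69 ± 0.45 (edgeR FDR 0.742) was -0.00397 ± 0.35 without O1. Ldhb, the subunit that favours pyruvate formation, averaged 70.5 ± 34.8 CPM in O libraries, against 66.2 ± 38.7 CPM in A libraries, with libraries between 21.8 CPM in A2 and 199 CPM in OAC1.

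Pfkl, the liver phosphofructokinase that commits sugar to glycolysis, had 1054, 375 and 318 CPM in O1, O2 and O3, against 250, 304 and 301 CPM in A1, A2 and A3. The O libraries all exceeded the A libraries, but the log2 fold change of 1.03 ± 0.43 (edgeR FDR 0.486) was 0.28 ± 0.29 without O1. Aldoc was read 115, 63 and 16 times in O1, O2 and O3, and 14, 0 and 14 times in A1, A2 and A3. At such counts its log2 fold change of 3.23 ± 1.18 (edgeR FDR 0.422, DESeq2 adjusted p 0.0739, or 0.0184 without O3) is loosely set. Without O1 it was 2.07 ± 1.13, with a DESeq2 adjusted p of 0.528. Hk2, the hexokinase known to be induced by insulin and low oxygen, went the other way, at 38.0 ± 11.9 CPM in O libraries, against 48.2 ± 1.26 CPM in A libraries. Its highest O library had 46.0 CPM and its lowest A library 47.4 CPM, so the groups lay close without overlap, and the log2 fold change was -0.34 ± 0.31.

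Of the other enzymes, Eno2, the neuronal enolase, had the highest log2 fold change of O over A, 1.03 ± 0.49, and Gpi1, the glucose phosphate isomerase, the lowest, 0.04 ± 0.45. Hk1, Pfkm, Pfkp, Aldoa, Tpi1, Gapdh, Pgk1, Pgam1 and Eno1 lay between them, and of these 11 enzymes Gapdh alone had no overlap between the groups. Without O1 the log2 fold change was below 0 for Hk1, Gpi1, Pfkm, Aldoa and Eno1, with Gpi1 lowest at -0.64 and Eno2 highest at 0.70.

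**Figure D2:**
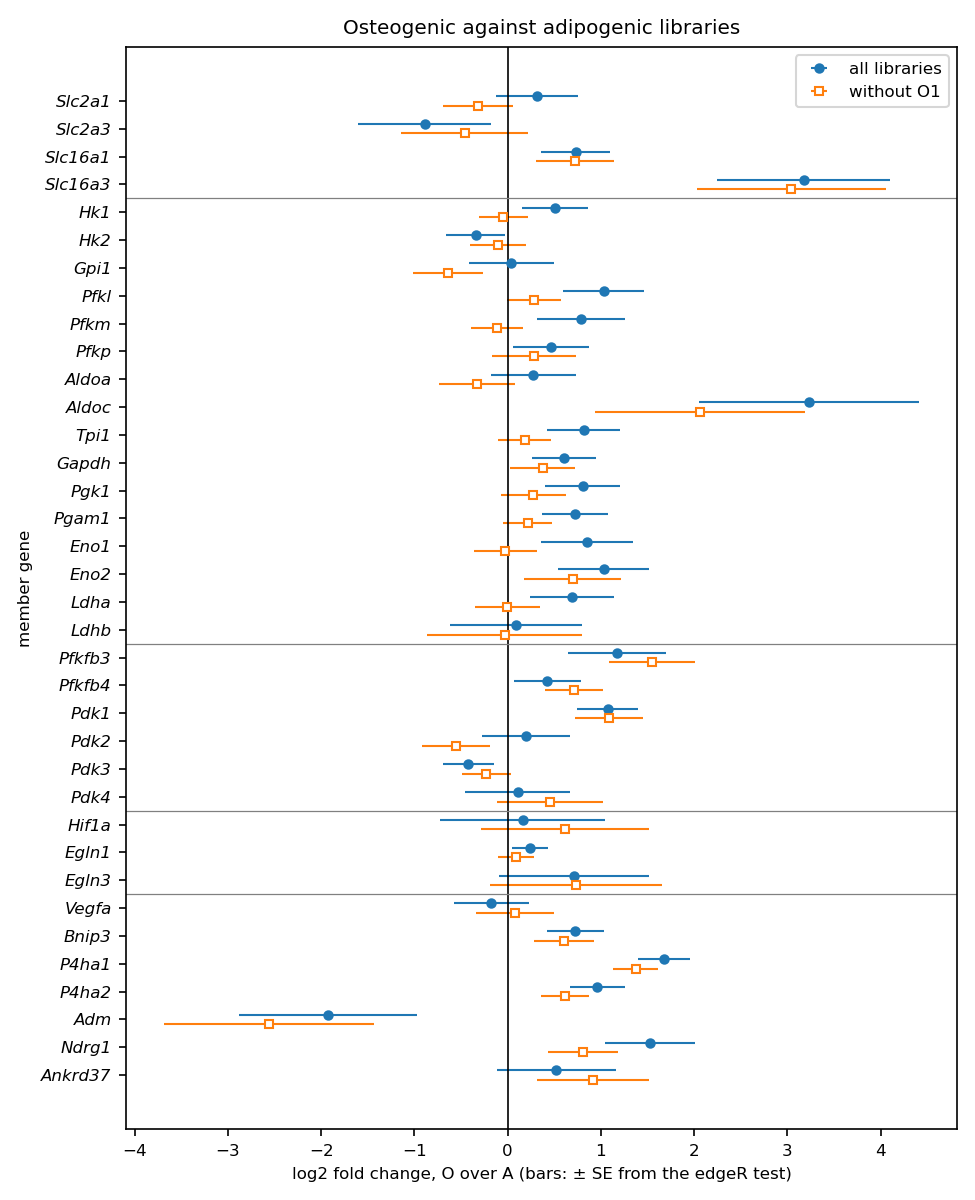
Log2 fold change of O over A for each member, grouped by role, from edgeR with all libraries (filled circles) and without O1 (open squares), with bars of 1 SE. For most glycolytic enzymes the squares sit near 0, where the median of the 16 enzymes was 0.09 without O1. Slc16a3, Aldoc, Pfkfb3, P4ha1 and Pdk1 stay above 1, and Adm lies the other way, at -2.56 without O1.

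Of the regulators, Pdk1 (ENSMUSG00000006494) separated the groups without relying on O1. Pdk1 is a kinase that shuts pyruvate dehydrogenase and so keeps pyruvate from oxidation in the mitochondria. It stood at 50.1, 48.1 and 54.6 CPM in O1, O2 and O3, against 20.04, 30.4 and 22.3 CPM in A1, A2 and A3. The O libraries were tight and all above the A libraries. Means were 51.0 ± 3.32 CPM in O libraries, against 24.2 ± 5.47 CPM in A libraries, a log2 fold change of 1.07 ± 0.33 with all libraries and 1.08 ± 0.36 without O1. Its edgeR FDR was 0.313 and its DESeq2 adjusted p 0.0603, so neither test called it.

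Pfkfb3, the enzyme that makes the activator of phosphofructokinase, had 7.12, 20.9 and 25.2 CPM in O1, O2 and O3, against 5.81, 9.32 and 8.53 CPM in A1, A2 and A3. Here O1 lay within the range of A and the other O libraries above it, and the log2 fold change was 1.17 ± 0.52 with O1 and 1.55 ± 0.46 without it (edgeR FDR 0.517 and 0.483). Its DESeq2 adjusted p was 0.263 with all libraries, 0.0415 without OA2 and O1, and 0.0766 to 0.637 with 1 library left out in turn. Pdk4, the kinase isoform induced by fasting and glucocorticoids, was at 46.3, 130.1 and 127 CPM in O1, O2 and O3, against 92.2, 68.1 and 122 CPM in A1, A2 and A3. The groups overlapped, with a log2 fold change of 0.11 ± 0.56. Pdk3 averaged 28.0 ± 7.67 CPM in O libraries, against 37.4 ± 7.02 CPM in A libraries, and Pdk2 and Pfkfb4 had log2 fold changes of 0.20 ± 0.47 and 0.43 ± 0.36 with overlapping groups.

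Hif1a, the oxygen-regulated transcription factor subunit, overlapped between the groups in every comparison. It had 38.3, 216 and 187 CPM in O1, O2 and O3, against 166, 119 and 110.1 CPM in A1, A2 and A3, a log2 fold change of 0.16 ± 0.89 (edgeR FDR 0.9996). The multipotent libraries had 96.0, 105 and 334 CPM in OAC and 271, 15.7 and 200.4 CPM in OA. OA2 and O1 were the lowest of all 14, and Hif1a has the lowest GC content of the members, 41.3%. A fit with a GC offset was among the alternatives, but the part of the GC trend in the level of Hif1a was not tested. Egln1 was higher in every O library, at 70.7 ± 11.8 CPM in O libraries, against 59.9 ± 1.93 CPM in A libraries, by a log2 fold change of 0.24 ± 0.20 (edgeR FDR 0.846). Egln3 averaged 5.70 ± 1.65 CPM in O libraries, against 3.47 ± 3.18 CPM in A libraries.

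**Figure D3:**
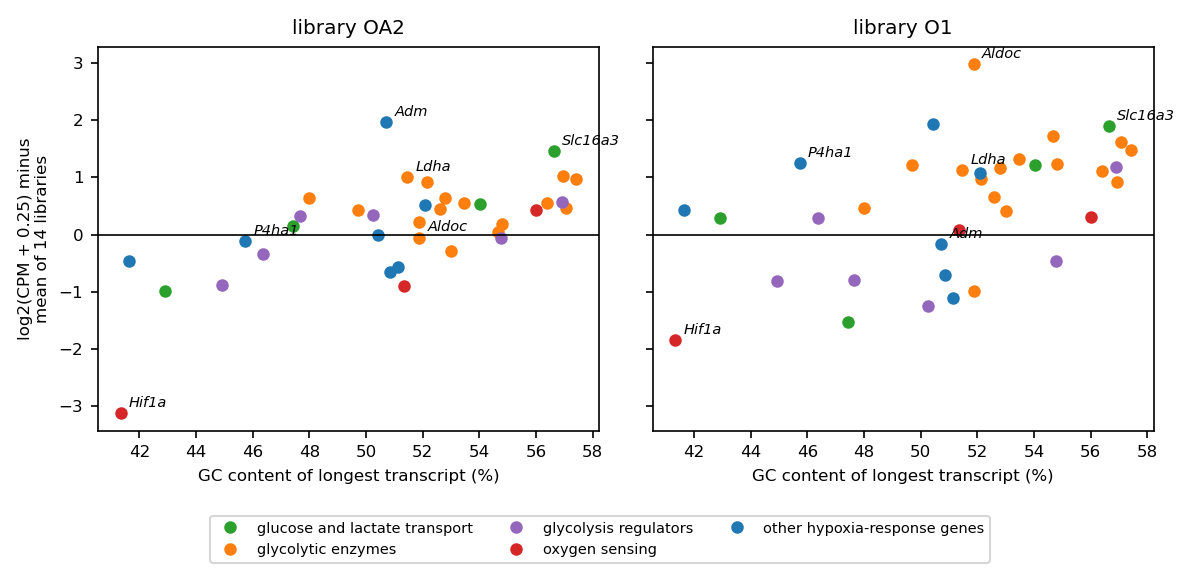
Deviation of each member from its mean over 14 libraries, as log2(CPM + 0.25), against the GC content of its longest transcript in percent, for OA2 (left) and O1 (right), with points coloured by role. Members rich in GC lie higher in both libraries, with a Spearman rho over the 36 members of 0.58 in OA2 and 0.51 in O1, and Hif1a lies lowest.

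Members of the set are richer in GC than the average gene, with a median of 51.9% against 49.9% of the tested genes that had a value. In O1 the 18 members at or above their own median GC deviated by a median of 1.13 and the 18 below it by 0.18. In OA2 these medians were 0.53 and -0.09. These relations are across genes, which are not independent replicates.

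The remaining hypoxia-response genes did not move as one. Ndrg1, a stress-response gene known to be induced by low oxygen, had 333, 76.1 and 149.9 CPM in O1, O2 and O3, against 79.3, 71.1 and 43.4 CPM in A1, A2 and A3. O2 lay within the range of A, and the log2 fold change of 1.53 ± 0.48 (edgeR FDR 0.331, DESeq2 adjusted p 0.0535) was 0.81 ± 0.37 without O1. Its DESeq2 adjusted p was 0.00219 without O2 and 0.448 without O1. Bnip3, which directs mitochondria to degradation, was higher in every O library, at 22.4 ± 3.804 CPM in O libraries, against 13.5 ± 3.15 CPM in A libraries, a log2 fold change of 0.73 ± 0.30 (edgeR FDR 0.484).

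Adm was lower in every O library, at 7.96, 0.761 and 5.18 CPM in O1, O2 and O3, against 21.5, 12.4 and 18.8 CPM in A1, A2 and A3. Its log2 fold change was -1.93 ± 0.95, with an edgeR FDR of 0.567 and a DESeq2 adjusted p of 0.302, which was 0.0285 without OA2 and O1 and 0.205 to 0.647 with 1 library left out in turn. Vegfa, the main signal for blood vessel growth, had 67.2, 147 and 109 CPM in O1, O2 and O3, against 79.5, 165 and 120.5 CPM in A1, A2 and A3. The groups overlapped, with a log2 fold change of -0.17 ± 0.41. Ankrd37, a small ankyrin-repeat gene known as a Hif1a target, averaged 2.37 ± 1.86 CPM in O libraries, against 1.66 ± 0.28 CPM in A libraries.

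**Figure D4:**
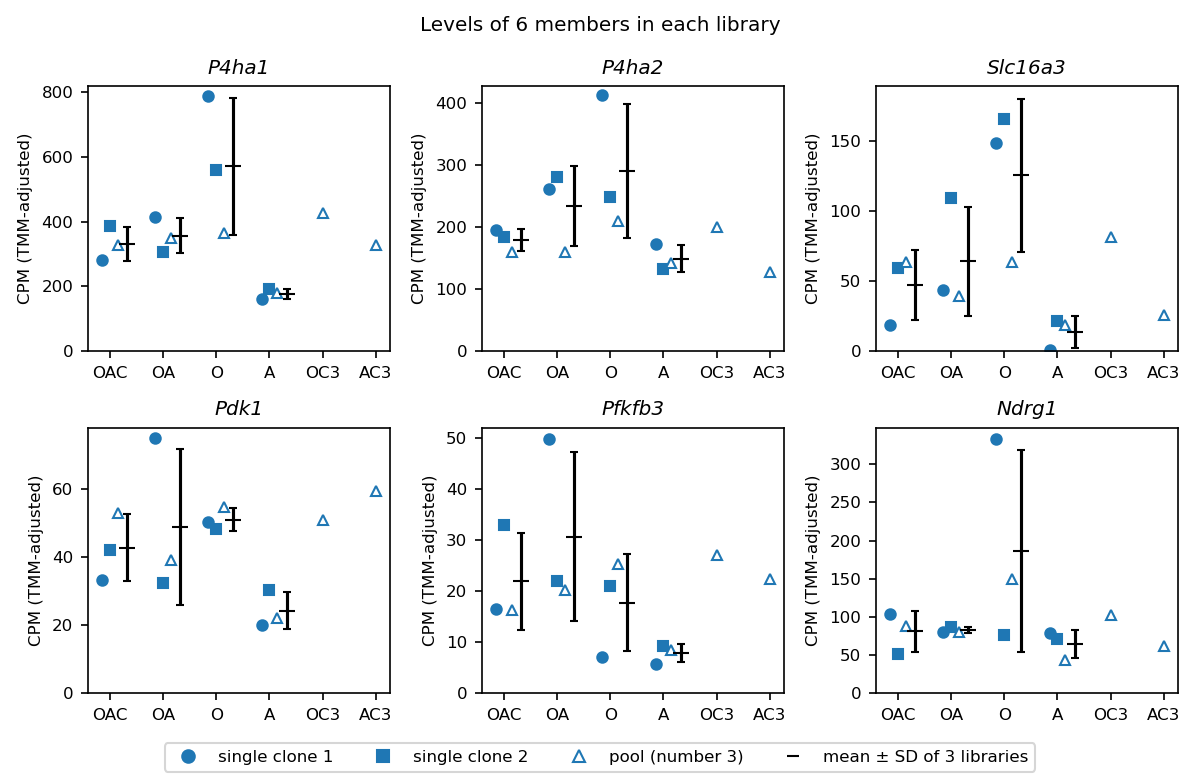
Levels in CPM of P4ha1, P4ha2, Slc16a3, Pdk1, Pfkfb3 and Ndrg1 in each library by group, with filled circles and squares for the single clones 1 and 2, open triangles for pools, and the mean ± SD of 3 libraries beside each replicated group. P4ha1 and Pdk1 are the members for which the 3 A libraries were the lowest of all 14.

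Every OAC and every OA library lay above every A library for Egln1, Pfkfb3, Pdk1 and P4ha1. The share of all genes that meet both conditions was not counted. This list is therefore not a result about the members. The comparisons of OAC, OA and O with A share the A libraries and are not independent. Pdk1 and P4ha1 are the only members for which the 3 A libraries were the 3 lowest of 14, which is 5.56% of the members against 0.784% of all genes. For no member were they the 3 highest (0.569% of all genes). P4ha1 had 282, 386 and 328 CPM in OAC1, OAC2 and OAC3, and 414, 306 and 348 CPM in OA1, OA2 and OA3, against 162 to 192 CPM in A. Its log2 fold change was 0.90 ± 0.27 for OAC over A and 1.00 ± 0.28 for OA over A, with edgeR FDRs of 0.9999 and 0.661 and DESeq2 adjusted p values of 0.20 and 0.0597. With OA2 and O1 left out these DESeq2 values were 0.0131 and 0.00217, and with 1 library left out in turn they ranged from 0.132 to 1 and from 0.0624 to 0.37.

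For OA against A, 5 members had an unadjusted p under 0.05 in edgeR, all higher in OA (Slc16a3, Pfkfb3, Pdk1, P4ha1 and P4ha2), or 13.9% against 3.14% of all genes higher and 5.34% in either direction. By FDR edgeR called 0 (0.0072% of all genes), and DESeq2 called 1, Pfkfb3 (0.669% of all genes higher, 0.95% in either direction). For 8 members every OA library lay above every A library (5.32% of all genes higher, 10.8% in either direction), and 28 of 36 were above 0 (49.7% of all genes), with a median of 0.38 against 0.00 over all genes. Pfkfb3 had 49.7, 22.0 and 20.3 CPM in OA1, OA2 and OA3, against 5.81, 9.32 and 8.53 CPM in A1, A2 and A3. OA1 was the highest of the 14 libraries, and no OA library came near A. Its means were 30.6 ± 16.5 CPM in OA libraries, against 7.89 ± 1.84 CPM in A libraries, a log2 fold change of 1.96 ± 0.53, with an edgeR FDR of 0.661 and a DESeq2 adjusted p of 0.0349. That call was lost without OA1 (0.399), A1 (0.242), A2 (0.103) or A3 (0.123) by DESeq2. Pdk1 averaged 48.9 ± 22.9 CPM in OA libraries, against 24.2 ± 5.47 CPM in A libraries, a log2 fold change of 1.01 ± 0.32, with an edgeR FDR of 0.684. Its DESeq2 adjusted p was 0.203 with all libraries and 0.0488 without OA2. Without OA1 the DESeq2 log2 fold change was 0.57 with an adjusted p of 0.862, so the size of the difference rests on OA1. Slc16a3 averaged 64.1 ± 39.0 CPM in OA libraries, against 13.9 ± 11.2 CPM in A libraries, a log2 fold change of 2.21 ± 0.89, with an edgeR FDR of 0.877. Ldha averaged 1131 ± 451 CPM in OA libraries, against 587 ± 96.7 CPM in A libraries, with a log2 fold change of 0.95 ± 0.45 and overlapping groups.

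For OAC against A, edgeR and DESeq2 called 0 members (0.0072% and 0.41% of all genes), and 4 had an unadjusted p under 0.05, all higher in OAC (Pfkfb3, Pdk1, Bnip3 and P4ha1), or 11.1% against 1.96% of all genes higher and 3.36% in either direction. Of 36 members, 30 were above 0 (49% of all genes), with a median of 0.17 against -0.01. Every OAC library lay above every A library for 6 members (5.22% of all genes higher, 10.6% in either direction), among them Ldha with 704, 1042 and 809 CPM in OAC and 500.3 to 691 CPM in A. Pfkfb3 had 16.5, 32.8 and 16.4 CPM in OAC1, OAC2 and OAC3, a log2 fold change over A of 1.47 ± 0.53. Pdk1 had 33.2, 42.2 and 52.8 CPM in these libraries, a log2 fold change over A of 0.82 ± 0.32.

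Set against O, the multipotent groups were lower for the collagen hydroxylases and Ndrg1 in mean, with overlapping libraries in most cases. For Ndrg1, O2 at 76.1 CPM lay below OAC1 and OAC3, at 104.5 and 88.2 CPM, and above OAC2, at 51.9 CPM. For OAC against O, 3 members had an unadjusted p under 0.05, all lower in OAC (P4ha1, P4ha2 and Ndrg1), or 8.33% against 2.51% of all genes lower and 5.81% in either direction. By adjusted p, edgeR (0% of all genes) and DESeq2 (0.734%) called 0. Of 36 members, 12 were above 0 (46.3% of all genes). P4ha1 averaged 332 ± 52.3 CPM in OAC libraries, against 569.8 ± 211 CPM in O libraries, a log2 fold change of -0.78 ± 0.27. Its DESeq2 adjusted p was 0.278 with all libraries and 0.0118 without O3. Without O1 the DESeq2 log2 fold change was -0.47 with an adjusted p of 0.718. P4ha2 averaged 179 ± 18.0 CPM in OAC libraries, against 290.0 ± 108 CPM in O libraries, a log2 fold change of -0.69 ± 0.29, and every OAC library lay below every O library. Adm was the reverse, with 22.9, 8.03 and 15.1 CPM in OAC and 0.761 to 7.96 CPM in O. These 2 were the members without overlap (11.3% of all genes, 6.15% higher and 5.18% lower).

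For OA against O, edgeR (0% of all genes) and DESeq2 (0.295%) called 0 members, and none separated the groups without overlap (7.94% of all genes). At an unadjusted p under 0.05 there were 4 (5.38% of all genes), with Hk2 higher in OA (3.33%) and Aldoc, P4ha1 and Ndrg1 lower (2.05%). Hk2 had 86.1, 56.5 and 45.7 CPM in OA1, OA2 and OA3, and 24.3, 46.0 and 43.7 CPM in O1, O2 and O3, a log2 fold change of 0.72 ± 0.32. Ndrg1 averaged 82.5 ± 4.13 CPM in OA libraries, against 186 ± 132 CPM in O libraries. O2, at 76.1 CPM, lay below every OA library, at 80.1 to 87.3 CPM. The higher mean of O came from O1 and O3, at 333 and 149.9 CPM. For P4ha1 the DESeq2 adjusted p was 0.42 with all libraries and 0.0317 without O3. Without O1 its DESeq2 log2 fold change was -0.40 with an adjusted p of 0.624, and without OA2 and O1 it was -0.25 with an adjusted p of 0.999. Of 36 members, 11 were above 0 (45.6% of all genes). The median over the members was -0.20, and without O1 it was 0.11.

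Between OAC and OA, edgeR and DESeq2 called 0 members and 0 of all genes (0%), and 0 members had an unadjusted p under 0.05, against 1.19% of all genes. The lowest p belonged to Slc2a3, with 4.68, 2.57 and 2.20 CPM in OAC1, OAC2 and OAC3 against 0.396, 1.97 and 1.09 CPM in OA1, OA2 and OA3, a log2 fold change of 1.45 ± 0.73. Slc2a3 and, in the lower direction, Pgam1, the phosphoglycerate mutase, did not overlap between the groups (4.81% of all genes, 2.36% higher and 2.45% lower), and 11 of 36 members were above 0 (48.7%). Pgam1 averaged 18.3 ± 2.02 CPM in OAC libraries, against 25.7 ± 5.76 CPM in OA libraries, and Pgk1, the phosphoglycerate kinase, 16.8 ± 1.47 CPM in OAC libraries, against 24.8 ± 6.71 CPM in OA libraries.

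With the 6 multipotent libraries set against the 6 unipotent ones, Pfkfb3 was the single member with an unadjusted p under 0.05 (4.87% of all genes, 2.9% higher). It averaged 26.3 ± 13.0 CPM in multipotent and 12.8 ± 8.14 CPM in unipotent libraries, a log2 fold change of 1.13 ± 0.37, with an edgeR FDR of 0.996 and a DESeq2 adjusted p of 0.256. edgeR (0% of all genes) and DESeq2 (0.23%) called 0 members, no member separated the 2 sets of libraries (0.259%), and 21 of 36 were above 0 (47.6%). Hk2 averaged 57.9 ± 16.6 CPM in multipotent and 43.1 ± 9.41 CPM in unipotent libraries. In a test for any difference among OAC, OA, O and A, DESeq2 called P4ha1 alone (adjusted p 0.000175, 2.1% of all genes called), edgeR called 0 (0%), and 7 members had an unadjusted p under 0.05 in edgeR (5.89% of all genes). DESeq2 kept P4ha1 with each of the 12 libraries left out in turn, at adjusted p values of 2.53e-09 to 0.0117. In these fits DESeq2 called 1 to 3 members, with the share of all genes not counted, and the calls beside P4ha1 turned on single libraries. The DESeq2 adjusted p of Aldoc ranged from 0.0216 without O3 to 0.879 without O1, and that of Ndrg1 from 0.00193 without O2 to 0.871 without O1. For P4ha2 it ranged from 0.0442 without OA3 to 0.595 without A2, for Pdk1 from 0.028 without OA1 to 0.787 without A1, and for Pfkfb3 from 0.0345 without O1 to 0.5804 without A1.

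The choice between related members differed in how steady it was. Per kilobase, Ldha made up 65% (OAC1) to 94.1% (OA2) of the 2 lactate dehydrogenase subunits and Hk1 77% (OC3) to 96% (O1) of the 2 hexokinases. Slc2a1 held at least 98.3% of the 2 glucose transporters in every library. The monocarboxylate transporters shifted most, with Slc16a1 at 21.4%, 22.0% and 34.0% of the pair in O1, O2 and O3, against 94.5%, 50.9% and 62.3% in A1, A2 and A3. The shares of Slc16a1 in O were all below those in A, which restates the level of Slc16a3 given above. Pfkfb3 held 71% of the Pfkfb3 and Pfkfb4 pair in OA1 and 22.7%, 24.2% and 25.4% in A1, A2 and A3. These 3 were the lowest of 14, with O1 next at 27.7%. Pfkfb4 averaged 14.5 CPM in A, 14.1 CPM in OA, 15.2 CPM in OAC and 19.5 CPM in O libraries. Against OA and OAC the low shares in A therefore mainly restate the level of Pfkfb3 given above. P4ha1 held 59.9% (A1) to 80.4% (AC3) of the hydroxylase pair, and Pdk4 29.4% (OA2) to 66.3% (OAC2) of the 4 pyruvate dehydrogenase kinases.

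**Figure D5:**
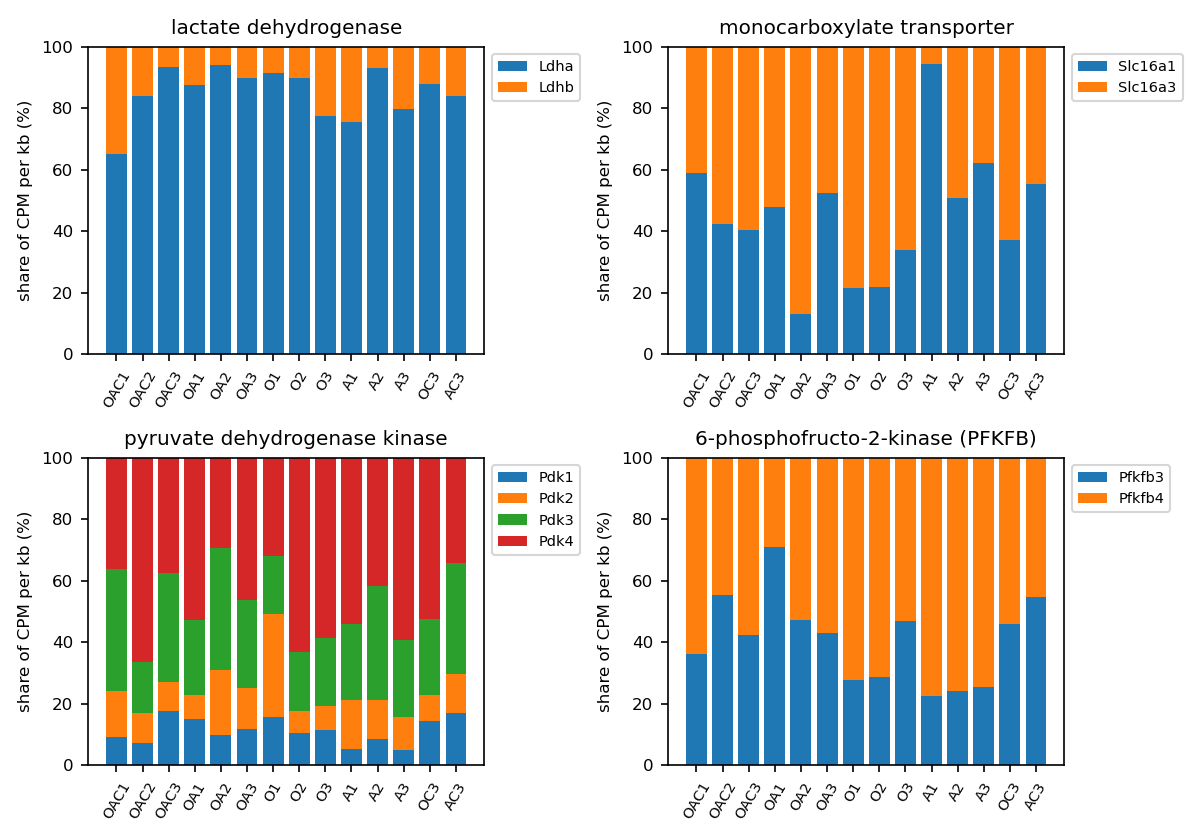
Share of each family member in its family's summed CPM per kb, in percent, in each of the 14 libraries, for lactate dehydrogenases, monocarboxylate transporters, pyruvate dehydrogenase kinases and the PFKFB enzymes. Ldha dominates in every library, at 65% or more, while the share of Slc16a1 ranges from 13.2% in OA2 to 94.5% in A1.

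The unreplicated pools OC3 and AC3 differed most from each other in Adm, Slc2a3 and Aldoc, chosen after their values were seen. OC3 had 0.825 CPM of Adm and AC3 52.1 CPM, the highest of 14. Slc2a3 was at 4.46 CPM in OC3 and 0.310 CPM in AC3, and Aldoc at 1.84 CPM in OC3 and 0.233 CPM in AC3, which are 49 and 6 reads. Slc16a3 was at 81.2 CPM in OC3 and 25.8 CPM in AC3. Levels of P4ha1 were 428 CPM in OC3 and 327 CPM in AC3, and levels of Pdk1 51.0 CPM in OC3 and 59.3 CPM in AC3, in each case above all 3 A libraries. Of the 36 members, 16 lay above the highest A library in OC3 and 12 in AC3, and 9 lay below the lowest A library in OC3 and 10 in AC3. These differences have no replicate check. The shares of all genes in these positions were not counted. The counts are therefore not a result about the members.

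Other genes of the same pathways were read from lists that do not overlap the 36 members. Of 22 other hypoxia-induced genes tested, DESeq2 called 1 higher and 1 lower in O against A (1.76% of all genes higher, 3.05% in either direction). At an unadjusted p under 0.05 edgeR counted 7 higher and 3 lower (4.81% of all genes higher, 9.51% in either direction), but 0 at its FDR. Their median log2 fold change was 0.69, against 0.03 over all genes. Their median deviation was 0.47, 0.15 and 0.18 in O1, O2 and O3, and -0.28, -0.33 and -0.03 in A1, A2 and A3. The list was not read without O1. Fam162a, a mitochondrial gene induced by low oxygen, averaged 267 ± 204 CPM in O libraries, against 68.3 ± 17.9 CPM in A libraries, with a DESeq2 adjusted p of 0.00533. Angptl4, a lipase inhibitor induced by low oxygen and by fat-cell regulators, averaged 1.07 ± 0.82 CPM in O libraries, against 16.6 ± 13.3 CPM in A libraries, with a DESeq2 adjusted p of 0.00017. Ero1l, which drives disulphide formation, averaged 51.1 ± 18.7 CPM in O libraries, against 16.5 ± 5.66 CPM in A libraries without overlap, with a DESeq2 adjusted p of 0.0626.

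Neither tool called any of the other glycolysis genes (17 tested), the genes of pyruvate entry and the TCA cycle (25) or the other oxygen-sensing regulators (12) in O against A. At an unadjusted p under 0.05 in edgeR these lists held 1 higher and 1 lower, 1 higher, and 1 higher gene, against 9.51% of all genes. Their median log2 fold changes were 0.09, 0.05 and 0.04, against 0.03 over all genes. Epas1, which encodes Hif2a, a relative of Hif1a, averaged 8.16 ± 6.80 CPM in O libraries, against 33.4 ± 10.7 CPM in A libraries without overlap, with an edgeR FDR of 0.561. Eno3, the muscle enolase, averaged 11.6 ± 4.85 CPM in O libraries, against 26.3 ± 3.86 CPM in A libraries without overlap, with an edgeR FDR of 0.426.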

How the data were processed

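Gene expression was measured by strand-specific RNA sequencing of oligo(dT)-selected RNA, per the labels' protocols, in 14 libraries. The authors deposited whole-number read counts per gene in 1 table, whose columns carry the library names. CASAVA 1.8.0, bedtools 2.11 and the mouse build mm9 are named per the submitters' processing notes. Which aligner was used, and whether counting used strand, is not given in the sources used here, so reads of overlapping or antisense genes cannot be told apart. No column was left without a sample.

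From the counts, TMM factors, CPM and the quasi-likelihood F test were computed with edgeR 4.0.16 in R 4.3.3. The 13896 genes that reached 1 CPM in 3 or more libraries were tested, with 6 group means on all 14 libraries, 8 residual degrees of freedom and Benjamini-Hochberg adjustment over all tested genes (FDR, threshold 0.05). DESeq2 1.42.0 with the same means and default filtering was the second test. The scripts were tested on simulated counts. Groups follow the labels. The set was read from the fit on all genes in 7 comparisons and 1 test for any difference. Members in full were those called by either tool, the 3 with the lowest edgeR p in each comparison, the 5 with the widest and 3 with the narrowest range, and Hif1a, Slc2a1, Ldha, Ldhb, Pdk4 and Vegfa. From other lists at most 3 genes with the lowest p were named. Eno3 and Epas1 are among these. The members, the lists and the tests were chosen with earlier results of these data known.

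GC content was taken from the longest GENCODE M21 transcript (96.5% of tested genes had a value), and near-identical copies from a search of its transcripts. Where reads match several genes equally, the counting may split or drop them. Alternatives were other size factors, no filter, the compared groups only, a replicate block, a GC offset, single clones only, and left-out libraries. DESeq2 fits with libraries left out and the counts of members under each setting were added after the data were seen. Depth limits low members such as Aldoc and Slc2a3.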

Additional observations from a re-analysis of the deposited data

Results flagged for a closer look

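Among the 6 multipotent and the 6 unipotent libraries, each member's highest and lowest log2(CPM + 0.25) was tested for its distance from the rest. The multipotent libraries mix OAC with OA, and the unipotent ones O with A. Of 72 groups, 10 had a library far from the other 5, and 8 of these were O1. Chance gives about 1 in 20 for a single group. The 72 groups use the same libraries and are not independent, so this rate cannot be set against their count. The share of all genes with such a library was not counted. Among all libraries of the series, O1 was the highest for 20.8% of all genes and the lowest for 15.3%. The count of groups with O1 far from the rest is therefore not a result about the members.

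In the unipotent libraries O1 was far above the others for 6 glycolytic enzymes and Egln1. Hk1, the main hexokinase here, was at 839.9 CPM in O1 and at 342.3 to 361.9 CPM in the others. Pfkl was at 1054 CPM in O1 and at 249.9 to 375.2 CPM in the others, and Pfkm, the muscle phosphofructokinase, at 358.3 CPM in O1 and at 75.61 to 123.1 CPM in the others. Tpi1 was at 1230 CPM in O1 and at 308.6 to 498.1 CPM in the others. Eno1, the main enolase, was at 867.3 CPM in O1 and at 207.2 to 294.2 CPM in the others, and Ldha at 1676 CPM in O1 and at 500.3 to 691.5 CPM in the others. Egln1 was at 84.23 CPM in O1 and at 58.16 to 65.14 CPM in the others.

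Hk2 lay the other way in O1, at 24.32 CPM, with the other unipotent libraries at 43.69 to 49.66 CPM. Pfkp, the platelet phosphofructokinase, was lowest in A1, at 21.83 CPM, with the others at 43.37 to 62.95 CPM. In the multipotent libraries Pfkm was lowest in OAC3, at 68.72 CPM, with the others at 97.84 to 120 CPM.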

How the results depend on the processing

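With DESeq2 in place of edgeR, the count of members called was 3 for O against A, 1 for OA against A and 1 for any difference among the 4 groups, where edgeR called 0. Under every edgeR setting the member counts stayed at 0, including the replicate block (0 members in every comparison, P4ha1 in O against A at a log2 fold change of 1.64 with an FDR of 0.183). With 1 library left out in turn, DESeq2 called 1 to 4 members for O against A, 0 to 2 for OA against A, 1 to 3 for any difference, 0 to 1 for OA against O and for OAC against O (1 without O3), and 0 in the other comparisons. Without both OA2 and O1 it called 4 for O against A, 3 for OA against A and 2 for any difference. For OAC against A it then called P4ha1, at an adjusted p of 0.0131. The shares of all genes called in these left-out fits were not counted. Of 18 same-numbered pairs of libraries, 11 had deviations correlated above 0.1 (r from -0.584 to 0.76). Of 12 libraries, 7 correlated best with a library of their own number. These values do not settle whether the replicate numbers pair the libraries. Without OA2 and O1, the log2 fold change in O against A was -0.026 for Ldhb, -0.31 for Slc2a1 and 0.084 for Vegfa, the reverse of their direction with all libraries. With single clones only, that of Hif1a was -0.12. Leaving out 1 library at a time gave log2 fold changes in O against A of -0.00397 to 0.98 for Ldha, -0.33 to 0.44 for Ldhb, -0.32 to 0.64 for Slc2a1, -0.47 to 0.11 for Vegfa, -0.23 to 0.61 for Hif1a and -0.11 to 0.45 for Pdk4. None of these was called in either direction, and the cause was not tested. The median over the members in O against A was 0.29 without OA2 and O1 and 0.28 without O1, and in OA against O 0.12 and 0.11, where the spread of that median between libraries of a group was 0.28. The other medians moved by less. Depth limits Aldoc and Slc2a3, with 0 to 115 and 7 to 119 reads per library.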
